A study of Saccharomyces cerevisiae with 6 samples.

Results

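The effect of deleting KNR4 was described in the stationary phase of a wine fermentation, on the 3 spotted two-colour arrays whose labels give 70 g of released CO2. They were chosen by that label alone, and they are 3 of the 6 arrays in the series; the other 3 were sampled at 10 g, in mid-exponential growth. Each array set RNA of the strain EKD-13 against RNA of EC1118, an industrial wine strain of Saccharomyces cerevisiae grown in the synthetic must MS300. EKD-13 has the EC1118 background and lacks both copies of KNR4, and EC1118 is labelled as wild type. The labels give a single recombinant strain and no strain with the gene put back, so an effect of the deletion cannot be told apart from other differences between these 2 strains. Arrays 1, 2 and 3 held RNA of separate fermentations of each strain. All ratios below are log2 of mutant over wild type, so 1 stands for a doubling. Of the 6388 genes in the authors' deposited table, 4341 had a ratio on at least 2 of the 3 arrays and were tested here, 361 of them on chromosome XII.

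KNR4, listed in the files as SMI1 (YGR229C), encodes a protein tied in baker's yeast to the synthesis of cell wall glucan and chitin and to signalling through the Slt2 protein kinase. The Slt2 pathway senses stress at the cell surface and turns on genes for wall proteins and wall enzymes, many of them through the transcription factor Rlm1. In stationary phase of a wine fermentation cells no longer divide but still take up sugar, and stress proteins, storage carbohydrates and high-affinity transporters are known to matter there. In such cultures a change in RNA per cell and a change in the share of cells that express a gene cannot be told apart.

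Array 2 stood apart from the other arrays, and this precedes every result. It alone had the mutant in Cy3, where arrays 1 and 3 had it in Cy5. Its mutant and wild-type RNA also came from different fermentation sets, while arrays 1 and 3 each stayed within a set, so dye and set cannot be told apart. Across the 3106 genes with 3 ratios, Pearson's r was 0.575 between arrays 1 and 3, 0.160 between arrays 1 and 2, and 0.012 between arrays 2 and 3. Without chromosome XII these values were 0.543, 0.119 and -0.060. Genes are not independent replicates, and these correlations describe the arrays only. The share of genes with the same sign was 70.6% for arrays 1 and 3, 55.8% for arrays 1 and 2 and 52.6% for arrays 2 and 3. Over the 230 genes with 3 ratios that the authors' deposited table calls, the correlations were higher, at 0.887, 0.830 and 0.789 in the same order, but that choice favours genes on which the arrays are alike. A ratio was present for 60.1, 53.3 and 60.9% of the 15360 spots with a named well on arrays 1, 2 and 3.

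**Figure D1:**
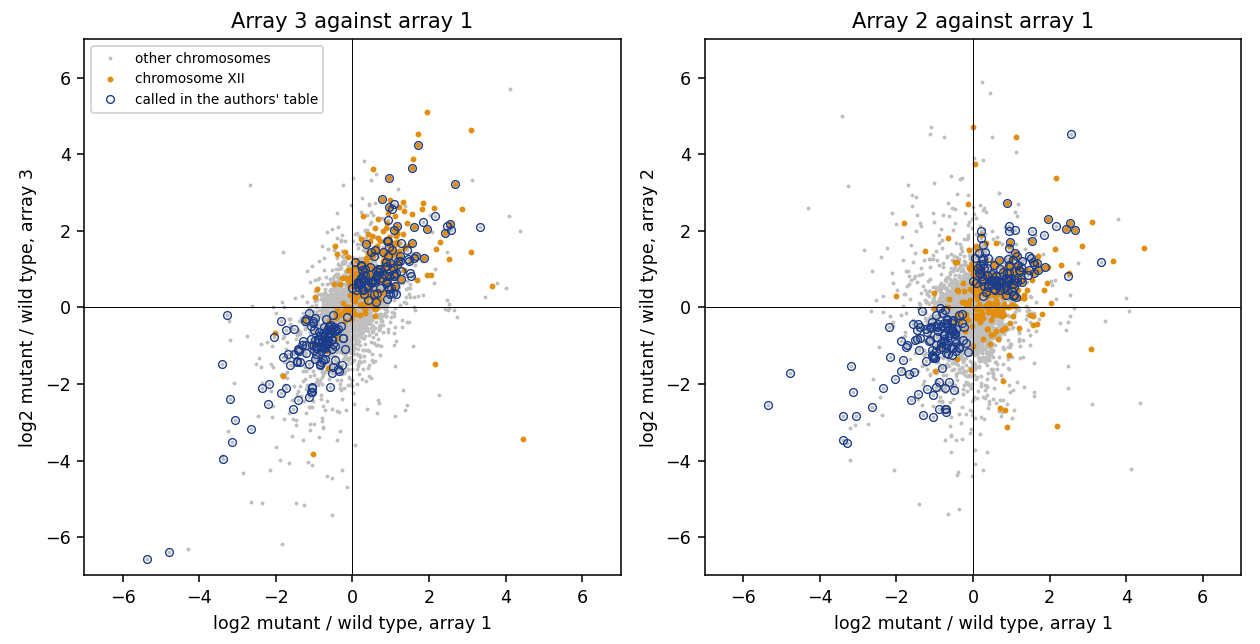
Log2 ratio of mutant over wild type for the 3106 genes with 3 ratios, array 3 against array 1 on the left and array 2 against array 1 on the right. Orange points are genes of chromosome XII, grey points are other genes, and blue rings are genes called in the authors' deposited table. The points follow a diagonal for arrays 1 and 3 (r = 0.575) and form a wide cloud for arrays 1 and 2 (r = 0.160).

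The deleted gene and its neighbours were examined first. The authors' deposited table lists SMI1 at -1.74 (adjusted p = 0.00025). No spot of SMI1 carried a ratio on any of the 3 arrays, so the low value of the deleted gene could not be read array by array. Of the genes beside it, DIE2, a glucosyltransferase gene, stood at -0.45 and -0.35 on arrays 1 and 2 and had no ratio on array 3. BNS1, a gene with a role in leaving mitosis, stood at -0.57, -0.15 and -0.67. YGR228W, an open reading frame that overlaps SMI1, had no ratio. The authors' deposited table called none of these 3, with values of -0.06 for DIE2, -0.25 for BNS1 and -0.07 for YGR228W.

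The number of genes called depended on the fit. With the 3 stationary arrays alone, limma called 0 of 4341 genes at an adjusted p under 0.05 (0% called), with 554 at an unadjusted p under 0.05, 307 of them higher and 247 lower. The smallest adjusted p was 0.208. The authors' deposited table, made by the study from the same arrays, calls 267 of 6388 genes (4.18%), 130 higher (2.04%) and 137 lower (2.14%). A limma model of all 6 arrays, which pools the spread of both phases, called 204 of 4291 genes (4.75%), 128 higher (2.98%) and 76 lower (1.77%). Of the 204, 86 are also called in the authors' deposited table and 58 lie on chromosome XII. This model treats the arrays of both phases as independent, though some share fermentation vessels. With a dye term it called far fewer genes, as given under processing below. The authors' calls are the study's own and are no independent support for the ratios shown beside them. Of the 267 genes, 243 were tested here, 230 had 3 ratios, 229 of those had the same sign on each array, and 179 had an unadjusted p under 0.05. Below, a gene is said to be called only with the fit that called it, and its ratios on the 3 arrays are given as measured. Counts of the authors' calls in a list are to be read beside 2.04% higher and 2.14% lower over all genes.

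Calls were most frequent among bright genes. Genes were split into 4 classes of 1597 by the mean log2 intensity of the authors' deposited table, class 1 the dimmest. The authors' deposited table calls 0% of class 1, 0.251% of class 2, 3.13% of class 3 and 13.3% of class 4. The calls of a list of bright genes are therefore also to be read against the share of its class. Arrays 1 and 2 correlated across genes at -0.088, 0.170 and 0.404 in classes 2, 3 and 4, and arrays 2 and 3 at -0.223, 0.038 and 0.246. When only tested genes at or above their median intensity were fitted (the brighter genes below), a choice made after the data were seen, limma called 12 of 2171 genes (0.553%), 6 higher and 6 lower. The 6 higher genes were HXT1, YKR075C, LCL2, MCM5, NYV1 and VMA6, and the 6 lower ones were AZR1, RNR3, INO1, GND2, YMR187C and SPS100. The authors' deposited table calls 11 of the 12, all but SPS100.

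**Figure D2:**
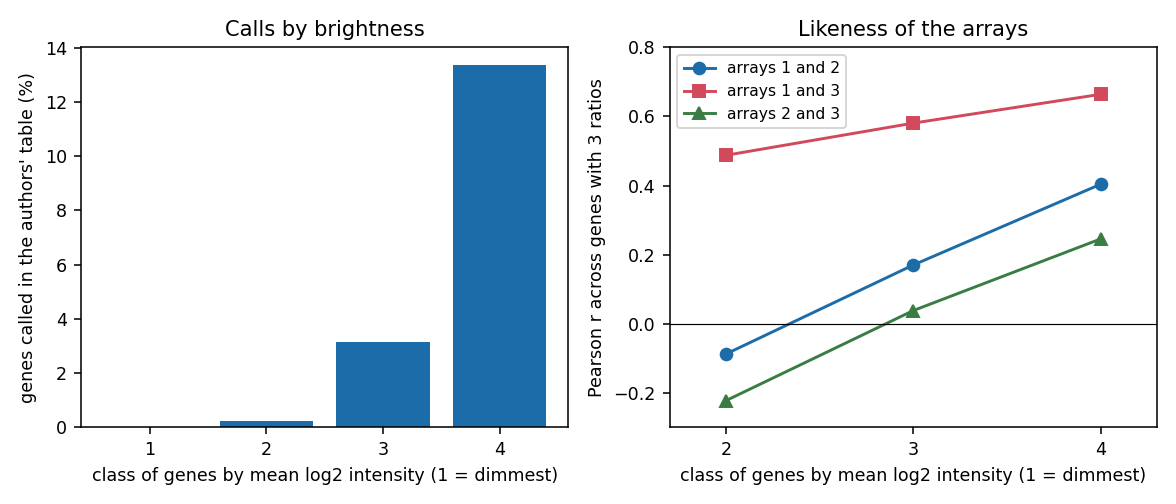
Left, the share of genes called in the authors' deposited table in each of 4 classes of 1597 genes by mean log2 intensity. Right, Pearson's r across genes with 3 ratios between pairs of arrays in the 3 brighter classes (class 1 has 15 such genes and is not drawn). The share rises from 0 to 13.3%, and the correlations with array 2 are lowest in class 2.

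Chromosome XII was higher as a whole. The median ratio of its 361 tested genes was 0.63, 0.49 and 0.97 on arrays 1, 2 and 3, a mean of 0.70 ± 0.25 (SD, n = 3). The median was above 0 on each array and was the highest of all chromosomes on each. The means of the other 15 nuclear chromosomes ran from -0.18 for X to 0.10 for I, and the mitochondrial genes were at -0.36. On chromosome XII 160 of 263 genes with 3 ratios were above 0 on every array (60.8%) and 6 below (2.28%). On the other chromosomes 445 of 2843 were above (15.7%) and 616 below (21.7%). An exact sign-flip permutation test of 3 array medians cannot go below p = 0.25 (two-sided), the value found. In the authors' deposited table the chromosome's median was 0.197, and 62 of its 551 genes were called higher (11.3%) and 0 lower, against 68 of 5837 higher (1.16%) and 137 lower (2.35%) elsewhere. The same median in mid-exponential growth was 0.68 ± 0.10 (SD, n = 3). The ratios of chromosome XII genes below are therefore to be read against a chromosome that lay near 0.70, and their names are given with it.

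**Figure D3:**
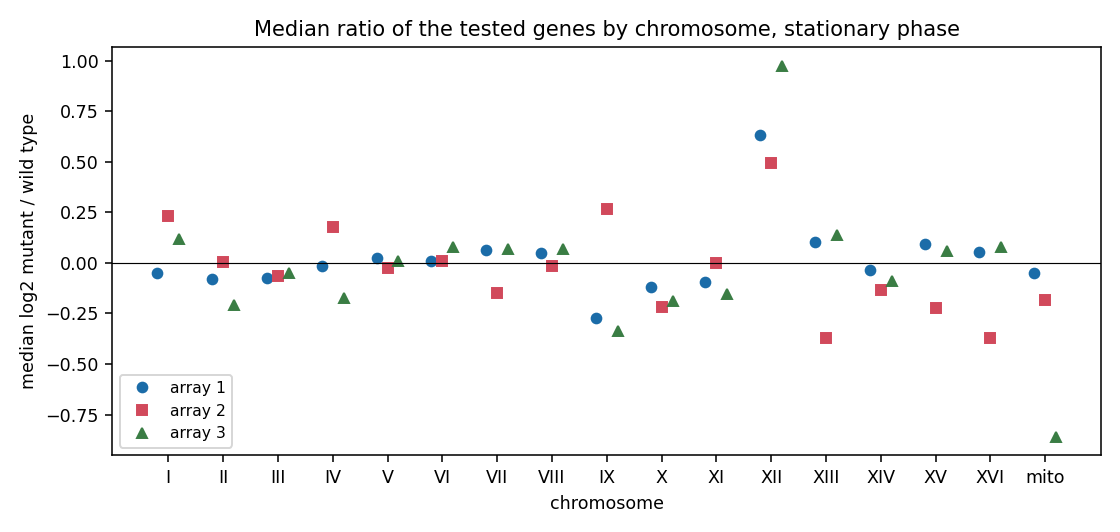
Median log2 ratio of mutant over wild type over the tested genes of each chromosome, 1 point per array. Chromosome XII stands at 0.63, 0.49 and 0.97, above every other chromosome on each array, and the mitochondrial genes are lowest on array 3.

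Among single genes of chromosome XII, NYV1, a vacuolar SNARE gene for membrane fusion, was at 1.95, 2.32 and 2.05. MCM5, which encodes a subunit of the replicative helicase, was at 2.43, 2.05 and 1.95. LCL2, a gene linked to protein degradation at the endoplasmic reticulum, was at 2.53, 2.20 and 2.18. VMA6, a subunit of the vacuolar proton pump, was at 1.55, 1.74 and 1.69. All 4 lay above the chromosome's median on every array, and all 4 were called higher both among the brighter genes (limma adjusted p = 0.026, 0.026, 0.022 and 0.042, in this order) and in the authors' deposited table, with log2 values of 1.25, 0.81, 0.77 and 0.82. ELO3, the elongase of very long chain fatty acids, was at 2.67, 2.01 and 3.23, and the authors' deposited table calls it at 0.65. It was too dim for the fit of brighter genes, and with the 3 arrays alone it was not called (limma adjusted p = 0.212), while the model of 6 arrays called it (limma adjusted p = 0.013). HRI1, SLX4 and EMC6 followed with means of 1.41 ± 0.43, 1.50 ± 0.47 and 1.39 ± 0.26 (SD, n = 3 each), each called in the authors' deposited table.

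Glucose transporters were called in both directions. HXT1, a low-affinity hexose transporter used at high sugar, was at 2.17, 2.12 and 2.38 on the 3 arrays, a mean of 2.22 ± 0.14 (SD, n = 3) or 4.66-fold. The 3 arrays gave HXT1 nearly the same value, array 2 included. It was called among the brighter genes (limma adjusted p = 0.022) and in the authors' deposited table at 2.11, and in the model of 6 arrays (limma adjusted p = 0.0046), and with all genes on the 3 arrays alone it was not (limma adjusted p = 0.212). HXT4, of intermediate affinity, was at 0.94, 1.99 and 0.49. HXT6 was at 0.90, 1.27 and 0.67 and HXT7, also a high-affinity transporter, at 0.65, 0.68 and 0.37. HXT6 and HXT7 are nearly identical in sequence, so their spots can bind the same RNA and count as a single result. GAL2, the galactose transporter, lies on chromosome XII and was at 0.58, 0.45 and 1.50, within reach of that chromosome's medians. HXT5, a transporter known from slow growth and stress, went the other way, with -1.67, -1.74 and -1.22. Of the 29 genes listed for hexose transport and glucose sensing, the authors' deposited table calls these 5 higher and HXT5 lower. The median of the 21 tested members was 0.06, against -0.02 over all tested genes.

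Other transporters of the plasma membrane were called in both directions. OPT2, an oligopeptide transporter gene, was at 2.56, 4.52 and 2.02, the highest gene of the authors' deposited table at 2.23. GIT1, a transporter for glycerophosphoinositol, was at 2.62 and 2.07 on arrays 1 and 2 and had no ratio on array 3; the authors' deposited table has it at 1.46. AZR1, a drug and acid transporter of the major facilitator family, was at -3.39, -3.45 and -3.95, a mean of -3.60 ± 0.31 (SD, n = 3). It lies at bases 942806 to 944647 of chromosome VII, near the deleted SMI1 at 949382 to 950899. An effect of this nearness was not tested. AZR1 was called lower among the brighter genes (limma adjusted p = 0.013) and in the authors' deposited table, where its value is smaller in size, at -1.38. PMA1, the proton pump of the plasma membrane, was at 1.14, 0.76 and 0.35, and its minor copy PMA2 at -1.74, -1.02 and -0.58. The authors' deposited table calls PMA1 higher, at 0.70, and PMA2 lower, at -0.61. The 2 genes are similar in sequence, so their spots may bind some of the same RNA.

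INO1 was lower on every array. INO1, whose enzyme makes inositol phosphate from glucose phosphate, was at -2.64, -2.59 and -3.18, a mean of -2.80 ± 0.33 (SD, n = 3). It was called lower among the brighter genes (limma adjusted p = 0.022) and in the authors' deposited table at -2.28. Of 26 genes for inositol and phospholipid synthesis, the authors' deposited table calls 2 lower, INO1 and PAH1, and GIT1 higher. PAH1, the phosphatidate phosphatase that holds INO1 and other lipid genes down, has -1.79 in the authors' deposited table, while its well was among those left out here. OPI3, of phosphatidylcholine synthesis, was at -1.31, -2.0 and -1.01 and was called lower in the model of 6 arrays (limma adjusted p = 0.030). With the 3 arrays alone OPI3 was not called (limma adjusted p = 0.261), nor is it in the authors' deposited table, at -0.46. The median of the 20 tested members was -0.24. In lipid synthesis ACC1 and its mitochondrial counterpart HFA1, the acetyl-CoA carboxylases, were at -1.12, -0.85 and -0.14 and at -0.93, -0.62 and -1.0, and the authors' deposited table calls both lower. PLB2, a phospholipase B gene, was at -1.82, -1.38 and -1.29 and is called lower in the authors' deposited table.

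Many genes of the stress response stood lower in the mutant, though not alike on the 3 arrays. SIP18, a hydrophilin that protects cells against drying, was at -4.78, -1.71 and -6.40. SSA3, an Hsp70 chaperone gene turned on as cells leave growth, was at -5.36, -2.56 and -6.57. Both were far below 0 on each array and least so on array 2, and neither was called with the 3 arrays alone (limma adjusted p = 0.261 for both). The model of 6 arrays called SIP18 and SSA3 lower (limma adjusted p = 0.039 and 0.028). SPG1, needed for survival in stationary phase, was at -3.20, -1.54 and -2.40, and FMP48, a kinase gene, at -1.43, -2.27 and -2.42. The authors' deposited table calls 9 of the 48 genes listed for the general stress response lower and 1 higher, beside 2.14% and 2.04% of all genes. The one called higher, TMA10, lies on chromosome XII. CTT1, the cytosolic catalase, was at -3.29, -3.53 and -0.20, so it was low on arrays 1 and 2 and near 0 on array 3. STF2, another hydrophilin, was at -2.20, -0.52 and -2.53. DDR48, a stress protein whose gene overlaps a dubious reading frame, was at -0.84, -1.03 and -1.47 and so lower on all 3. For these genes the authors' deposited table gives -3.02 for SIP18, -1.04 for CTT1, -0.99 for STF2 and -1.11 for DDR48. Of the 23 genes for hydrophilins and survival in stationary phase, 7 are called lower and 0 higher in the authors' deposited table, beside the same shares of all genes. The 7 are SIP18, SSA3, SPG1, FMP48, STF2, CTT1 and HSP12. SIP18 is in both lists, so their counts overlap. The medians of the 18 tested members were -0.58, -0.56 and -0.20 by array, and 7 of the 18 had a mean above 0. HSP12, the small membrane chaperone, has -1.88 in the authors' deposited table and carried a ratio on array 1 only, of -9.64, so the size of its change has no replicate.

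The median of the 38 tested stress genes was -0.82, and it was -0.91 without the 2 on chromosome XII. By array it was -1.18, -0.12 and -0.88. Of the stress genes with a ratio, 32 of 38 lay below 0 on array 1 and 30 of 34 on array 3, but 18 of 33 on array 2. Over all tested genes the counts below 0 were 1949 of 4138, 1971 of 3752 and 1881 of 3898 on arrays 1, 2 and 3. Of the 29 stress genes with 3 ratios, 19 had their highest value on array 2, beside 1084 of 3106 over all genes. The shift of the list on arrays 1 and 3 was close to absent on array 2, where dye and fermentation sets differ. Trehalose and glycogen, the storage carbohydrates of resting yeast, showed the same order, with medians of -0.98, -0.17 and -0.82 over 18 tested genes. None of the 22 storage genes is called in the authors' deposited table. GIP2, a regulator of glycogen synthase phosphorylation, was at -0.81, -1.57 and -1.25, and GDB1, the glycogen debranching enzyme, at -1.15, -0.71 and -1.59 (limma adjusted p = 0.261 and 0.282 with the 3 arrays alone, and 0.084 and 0.040 in the model of 6 arrays, which called GDB1 lower).

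**Figure D4:**
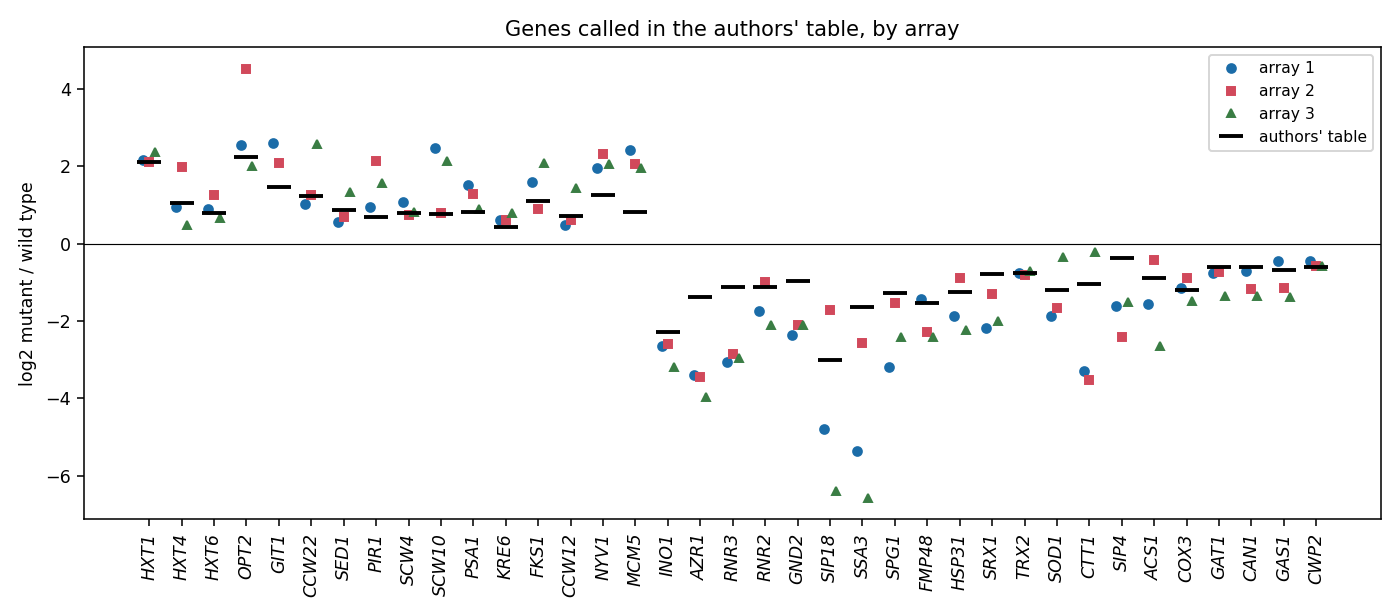
Log2 ratio of mutant over wild type on each array (points) for genes called in the authors' deposited table, with the value of that table as a black bar. Transporter, cell wall and chromosome XII genes on the left lie above 0 on every array with a ratio and those from INO1 on lie below; SIP18 runs from -1.71 on array 2 to -6.40 on array 3.

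Genes that deal with oxidants lay mostly below 0. Of 32 genes for oxidative stress and redox balance, the authors' deposited table calls 4 lower, TRX2, SOD1, SOD2 and OYE2, and 0 higher. TRX2, a cytosolic thioredoxin, was at -0.75, -0.82 and -0.72, the narrowest spread of them. The superoxide dismutases SOD1 and SOD2 were at -1.87, -1.65 and -0.35 and at -1.04, -1.33 and -0.42, and CCS1, which loads copper into Sod1 and is not of the list, at -0.54, -1.24 and -0.60. SRX1, which repairs peroxiredoxins and was not listed either, was at -2.17, -1.31 and -2.01, and OYE2, an NADPH oxidoreductase, at -0.77, -0.87 and -1.07. All 6 genes were below 0 on every array and are called lower in the authors' deposited table, at -0.76 for TRX2, -1.19 for SOD1, -0.61 for SOD2, -0.50 for CCS1, -0.78 for SRX1 and -0.83 for OYE2. With the 3 arrays alone none was called (limma adjusted p from 0.261 for SRX1 to 0.369 for CCS1). The model of 6 arrays called SRX1 and OYE2 lower (limma adjusted p = 0.032 for both). The list medians were -0.65, -0.31 and -0.33 by array over 29 tested genes. ERO1, which makes disulphide bonds in the endoplasmic reticulum, was at -1.05, -2.29 and -2.08, and HSP31, a stress chaperone, at -1.88, -0.89 and -2.23. The authors' deposited table calls 4 of 42 chaperone genes lower and 0 higher, and the medians of the 40 tested ones were -0.27, -0.02 and -0.32.

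Of the subunit genes of ribonucleotide reductase, which makes the building blocks of DNA, 3 stood lower. RNR3, the damage-induced large subunit, was at -3.07, -2.84 and -2.95, a mean of -2.95 ± 0.11 (SD, n = 3) or 7.74-fold lower. It was called among the brighter genes (limma adjusted p = 0.013) and in the authors' deposited table at -1.12. RNR2, a small subunit, was at -1.73, -0.99 and -2.11, and RNR4, the other small subunit, at -0.97, -0.19 and -0.86. The authors' deposited table calls RNR2 lower at -1.12 and RNR4 lower at -0.39. RNR1, the main large subunit, was at 0.67, 3.00 and 0.27 and was not called (limma adjusted p = 0.448 with the 3 arrays alone and 0.182 in the model of 6 arrays, and 0.46 for its log2 value in the authors' deposited table). Of the 22 genes for ribonucleotide reductase and DNA damage the authors' deposited table calls these 3 lower and 1 other gene higher. The median of the 16 tested was -0.18. GND2, a 6-phosphogluconate dehydrogenase of the oxidative pentose phosphate pathway, was at -2.36, -2.11 and -2.11, called among the brighter genes (limma adjusted p = 0.022) and in the authors' deposited table at -0.95. YMR187C, a gene of unknown role, was at -3.15, -2.20 and -3.51 (limma adjusted p = 0.027 among the brighter genes, and -1.86 in the authors' deposited table).

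The regulators of growth on carbon other than sugar stood lower. Of 20 genes for gluconeogenesis, the glyoxylate cycle and targets of Sip4, the authors' deposited table calls 3 lower and 0 higher. The regulators SIP4 and CAT8, which turn on these genes once glucose is gone, were at -1.62, -2.41 and -1.50 and at -1.22, -1.39 and -0.31. ACS1, acetyl-CoA synthetase, was at -1.56, -0.43 and -2.64. The array medians of the 12 tested members were -0.65, -1.90 and 0.16, so arrays 2 and 3 went apart for the list while the 3 called members were below 0 on each. In glycolysis and fermentation 3 of 34 genes are called lower in the authors' deposited table and 1 higher. PDC6, a minor pyruvate decarboxylase, was at -3.40, -2.83 and -1.49. PDC5, another pyruvate decarboxylase and on chromosome XII, was at 0.46, 0.72 and 1.06. GPP1, a glycerol-3-phosphatase, was at -1.08, -1.24 and -2.21, and GPM1, phosphoglycerate mutase, at -0.67, -0.34 and -0.95. Of the genes for aroma esters and fusel alcohols, ATF2, an alcohol acetyltransferase, was at 3.33, 1.19 and 2.10, and EEB1, an ethyl ester synthase, at -0.72, -2.66 and -0.83. The authors' deposited table calls ATF2 higher at 0.47 and EEB1 lower at -0.46, and 2 of 24 genes of that list in each direction.

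Respiratory genes and the mitochondrial genome differed by gene. Of 53 genes for respiration and the tricarboxylic acid cycle the authors' deposited table calls 4 lower and 0 higher, namely COX13, QCR6, QCR8 and MDH1. MDH1, mitochondrial malate dehydrogenase, was at -0.69, -0.46 and -0.83. The medians of the 43 tested genes were -0.40, -0.34 and -0.20. COX3 and COX2, subunits of cytochrome oxidase encoded in mitochondria, were at -1.15, -0.89 and -1.48 and at -0.36, -1.07 and -1.68, and are called lower in the authors' deposited table. VAR1, a mitochondrial ribosomal protein, was at -0.81, -0.15 and -1.42 and is called lower there too. COX1, the other mitochondrial subunit of that enzyme, was above 0 on every array, at 0.40, 0.53 and 0.20. AI4, encoded by an intron of COX1, was at 0.71, 1.00 and 0.51. The authors' deposited table calls COX1 and AI4 higher, at 0.51 and 0.88. AI4 shares its transcript with COX1, so these are not separate results.

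Of 42 genes under nitrogen catabolite repression, which are kept low while good nitrogen sources last, the authors' deposited table calls 6 lower and 1 higher, OPT2. GAT1, an activator of this group, was at -0.76, -0.73 and -1.36. CAN1, the arginine permease, was at -0.72, -1.18 and -1.34, PUT4, the proline permease, at -0.62, -1.96 and -0.49, and GDH3, a glutamate dehydrogenase, at -0.83, -0.49 and -1.15. UGA4, for GABA uptake, was at -0.99 and -0.58 on arrays 1 and 2 and had no ratio on array 3. All of these were below 0 wherever measured, and none was called with the 3 arrays alone (limma adjusted p from 0.277 for CAN1 to 0.448 for UGA4). The model of 6 arrays called CAN1 lower (limma adjusted p = 0.032). The medians of the 27 tested members were -0.17, -0.19 and -0.74 by array, so the shift was largest on array 3. In arginine synthesis and use, 3 of 16 genes are called lower in the authors' deposited table, CAN1, CPA1 and ARG1. CPA1, a subunit of carbamoyl phosphate synthetase, was at -0.60, -0.67 and -0.50. ARG1 was at -1.32, -0.09 and -0.98. Among regulators of growth and stress, MSN2, an activator of stress genes, was at -1.02, -1.28 and -0.36, and PDE2, the high-affinity cAMP phosphodiesterase, at -0.53, -1.07 and -0.83. The authors' deposited table calls both lower, at -0.41 each.

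The cell wall genes that were called were for the most part higher, with a few lower. Of 29 genes for beta-glucan synthesis and remodelling, the authors' deposited table calls 5 higher and 1 lower. FKS1, the catalytic subunit of glucan synthase and on chromosome XII, was at 1.60, 0.90 and 2.10. SCW4 and SCW10, wall glucanase-like proteins, were at 1.07, 0.74 and 0.82 and at 2.48, 0.81 and 2.13. KRE6, for beta-1,6-glucan, was at 0.61, 0.62 and 0.79. GAS1, which elongates beta-1,3-glucan, was the one called lower, at -0.45, -1.14 and -1.37. Apart from FKS1 and ACF2, an endoglucanase on chromosome XII at 0.89, 2.73 and 1.74, the higher members lie on other chromosomes. The list medians were 0.26 and 0.41 on arrays 1 and 2 and close to 0 on array 3 over 21 tested genes, and over all arrays 0.14, or 0.05 without chromosome XII.

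Of 34 cell wall mannoproteins, 6 are called higher and 3 lower in the authors' deposited table, with CIS3 and TIR2 among the higher ones. SED1, a major wall protein of stationary cells, was at 0.56, 0.70 and 1.33. PIR1, which links to beta-1,3-glucan, was at 0.95, 2.13 and 1.57, and HSP150, of the same family, at 0.39, 1.29 and 0.58. CCW12, an abundant wall protein on chromosome XII, was at 0.48, 0.61 and 1.45. The 3 lower genes were NCA3 at -1.29, -2.82 and -0.87, TIR4 at -0.83, -0.49 and -1.0, and CWP2, a major mannoprotein, at -0.44, -0.57 and -0.58. CCW22, a reading frame akin to CCW12, was at 1.04, 1.25 and 2.58, and its likeness to CCW12 leaves its own level uncertain. PSA1, which makes the GDP-mannose used for mannoproteins, was at 1.51, 1.29 and 0.89, and TOS1, a wall protein, at 1.26, 1.05 and 0.95. Both are called higher in the authors' deposited table, at 0.81 and 0.66.

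The list of genes downstream of Slt2 and Rlm1 shares many of these members. Of 27, the authors' deposited table calls 5 higher, PIR1, SED1, HSP150, CIS3 and YPS1, the last on chromosome XII, and CWP2 lower. KDX1, an Slt2-like kinase gene and a known marker of this pathway, was at 3.49 and 4.35 on arrays 1 and 2 and had no ratio on array 3. The model of 6 arrays called KDX1 higher (limma adjusted p = 0.028). With the 3 arrays alone it was not called (limma adjusted p = 0.241), nor is it in the authors' deposited table, at 0.28. Of the 28 genes for cell wall integrity signalling, MID2, a cell surface sensor, and PUN1, a membrane protein of the stressed wall, are called higher in the authors' deposited table. Both lie on chromosome XII, with MID2 at 1.17, 1.10 and 2.12 and PUN1 at 1.25, 0.74 and 1.21. WSC2, a sensor gene on chromosome XIV, was at 2.635 and 1.95 on arrays 1 and 2 and had no ratio on array 3. The model of 6 arrays called it higher (limma adjusted p = 0.028), while the authors' deposited table does not, at 0.40. That model called 6 signalling genes higher and 0 lower, beside 2.98% and 1.77% of all genes. The median of the 22 tested signalling genes was 0.29, and 0.10 without the 5 of chromosome XII. SLT2 itself was at -0.34, 1.07 and 0.58. In chitin synthesis 1 of 21 genes is called, PCM1, higher. Of 11 flocculins and agglutinins the authors' deposited table calls 1 lower, the regulator MSS11, which had no usable ratio here. FLO1, a flocculin, was at 0.22 and 0.35 on arrays 1 and 2, and FLO11, for invasive growth and biofilms, had a ratio on array 3 only, of -2.77. None of 24 seripauperins, small anaerobic wall proteins with near-identical copies, is called, with medians of -0.06, -0.12 and -0.10.

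**Figure D5:**
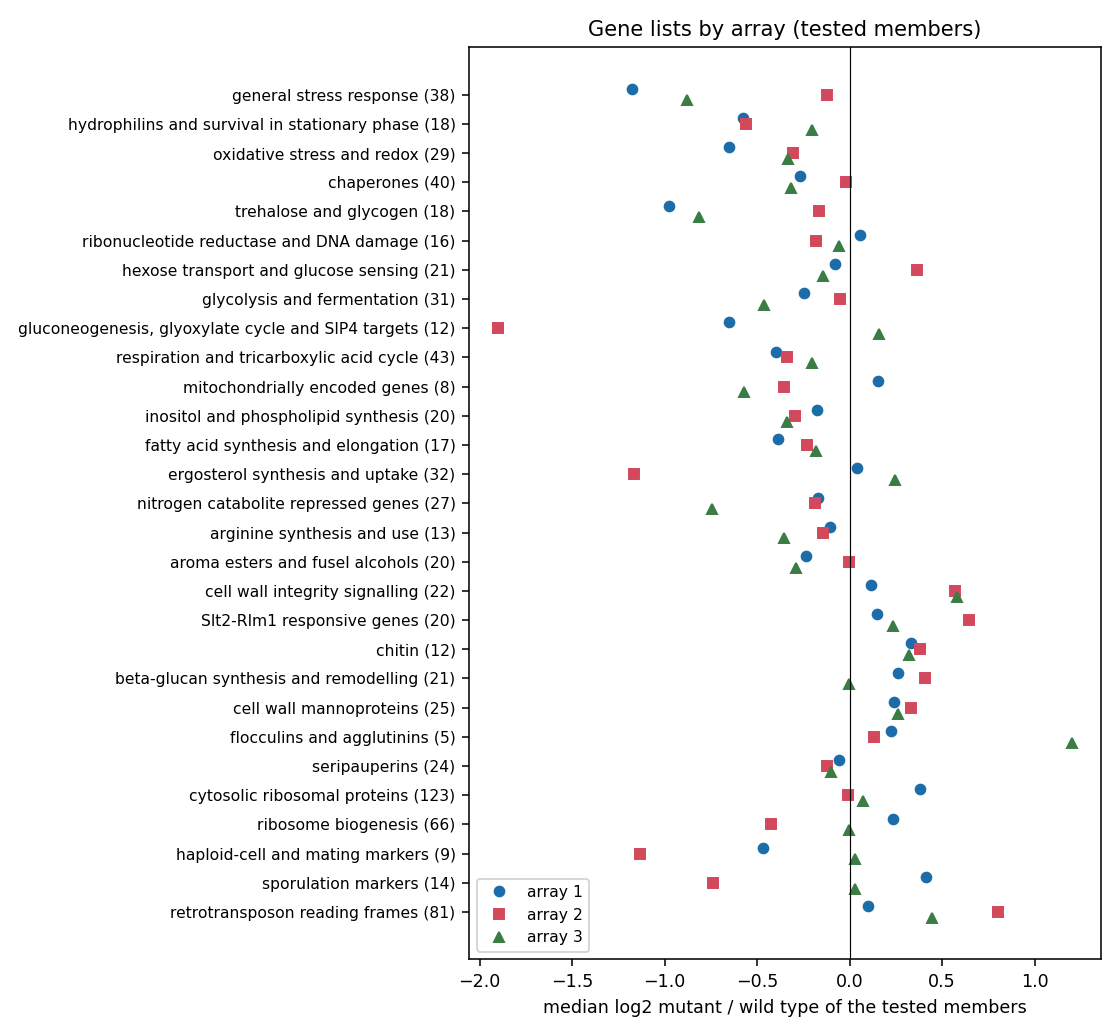
Median log2 ratio of mutant over wild type over the tested members of each gene list (their number in brackets), 1 point per array. The general stress list and the trehalose and glycogen list lie well below 0 on arrays 1 and 3 and nearer 0 on array 2. Ergosterol synthesis is at -1.17 on array 2 alone, and the retrotransposon frames were added after their values were seen.

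Ribosomal protein genes were called higher more than lower. The authors' deposited table calls 15 of 138 cytosolic ribosomal proteins higher and 2 lower, beside 2.04% and 2.14% of all genes. The list is bright, with a median log2 intensity of 9.01, within class 4. In that class 13.3% of genes are called in either direction. Of the 15, 9 are among the 18 members on chromosome XII, where 11.3% of all genes are called higher. RPS30B was at 1.43, 0.84 and 1.50, and RPS31 and RPL26A, both on chromosome XII, at 1.23, 0.95 and 1.34 and at 1.15, 0.66 and 1.10. Most are present as a pair of near-identical genes, so a member of chromosome XII and its copy elsewhere can bind the same RNA: RPS1A, on XII, was at 0.87, 0.77 and 0.82, and RPS1B, on XIII, at 1.08, 0.32 and 0.86. RPL26B, the copy of RPL26A on VII, was at 1.05, 0.28 and 1.03. The lower pair was RPL41A at -0.37, -0.19 and -0.57 and RPL41B at -0.29, -0.17 and -0.49. The medians were 0.38, -0.01 and 0.07 over 123 tested genes, and 0.10 over all arrays without chromosome XII. On array 2, 64 of 120 members with a ratio lay below 0. Of 90 ribosome biogenesis genes 2 are called lower in the authors' deposited table, DBP2 and NSR1, and 0 higher. The lower share is near the 2.14% of all genes.

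A list noticed only after its values were seen was that of the retrotransposon reading frames, the Gag and polymerase genes of Ty elements named in the files' annotation. The authors' deposited table calls 21 of 89 higher and 0 lower. These frames are bright, with a median log2 intensity of 9.93, within class 4, where 13.3% of genes are called in either direction. Of 80 with 3 ratios, 58 were above 0 on every array and 1 below, beside 19.5% and 20% of all genes with 3 ratios. Their medians were 0.10, 0.80 and 0.45 by array. In 61 of the 80 array 2 had the highest value, beside 1084 of 3106 over all genes with 3 ratios. Ty copies are near identical and share RNA between spots, so 21 calls are not 21 independent genes.

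Where array 2 went its own way was tested as array 2 against arrays 1 and 3, over 3106 genes. limma called 0 genes (0%), with 500 at an unadjusted p under 0.05 and a smallest adjusted p of 0.125. The fit has 1 residual degree of freedom and cannot show that a gene did not differ. On simulated data with known log2 changes of 1, 2 and 4 it called 0 of 67, 0 of 67 and 0 of 66 changed genes. The count of 0 is thus uninformative, since even large differences went uncalled. ALD3, a stress-induced aldehyde dehydrogenase, was at -3.41, 5.00 and -3.89, and SUL1, a sulphate permease, at -3.25, 3.16 and -3.23. These were the 2 genes with the smallest p of this test, named after their values were seen. Ergosterol synthesis, the sterol pathway of yeast membranes, was lower on array 2 alone. Its medians were 0.04, -1.17 and 0.24, and 27 of 31 members with a ratio were below 0 on array 2, against 14 of 31 on array 1 and 6 of 31 on array 3. Over all tested genes the counts below 0 were 1949 of 4138, 1971 of 3752 and 1881 of 3898 on arrays 1, 2 and 3. In 23 of 29 ergosterol genes with 3 ratios array 2 had the lowest value, beside 1344 of 3106 over all genes. ERG1, squalene epoxidase, was at 0.53, -2.40 and 0.60, and HMG1, the rate-setting HMG-CoA reductase, at 0.28, -2.92 and 1.20. ERG4, the last enzyme of the pathway, was below 0 on each array, at -0.53, -0.61 and -1.08, and the authors' deposited table calls it lower and ECM22, a sterol regulator on chromosome XII at 0.61, 0.82 and 0.94, higher. The parts of dye and fermentation set in these differences were not tested, since this phase has a single array of that kind.

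Few genes had a stationary ratio that was called different from that in mid-exponential growth. The difference was tested in a limma model of all 6 arrays over 4291 genes, of which 5 were called (0.117%), with 549 at an unadjusted p under 0.05. With the array number as a block, fitted only to genes with a ratio on all 6 arrays, 1 gene was called. VHR2, 1 of the 5, lacks a ratio and was not in that fit. With a dye term 2 genes were called. INO1 went from 2.76 to -2.80, a difference of -5.57 (limma adjusted p = 0.0028), a change of sign. AZR1 went from -0.03 to -3.60, RNR3 from -0.63 to -2.95 and HXT1 from 0.10 to 2.22 (limma adjusted p = 0.0096, 0.042 and 0.043). VHR2, a regulator of vitamin H genes, went from -0.12 to 3.12 (limma adjusted p = 0.042), with no ratio on stationary array 2, and the authors' deposited table has it at 0.11 in stationary phase. The stationary and mid-exponential samples share some fermentation vessels.

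Markers of other cell states were for the most part dim or without a ratio. Of the defining genes of haploid and mating cells, STE2, STE3, MFA1, MFA2 and MF(ALPHA)1 had no ratio on any of the 3 arrays. Of those of sporulating cells, IME1 and NDT80 had none, DIT1 was at 0.74 and 0.12 and SPS4 at -1.38 and -0.53 on arrays 1 and 3. SPS100, a spore wall gene, was at -5.70 and -7.74 on arrays 1 and 2 and was called lower (limma adjusted p = 0.028 among the brighter genes and 0.012 in the model of 6 arrays). The authors' deposited table does not call SPS100, at -2.36. The model of 6 arrays called 1 sporulation marker higher and 1 lower and no haploid marker. The authors' deposited table calls 0 of 30 haploid and 0 of 47 sporulation markers. Of these, 9 and 14 were measured on 2 arrays or more, and the defining markers without a ratio could not be compared.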

How the data were processed

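RNA of the mutant and the wild type was compared on 3 two-colour spotted arrays at 70 g of released CO2. The authors deposited log2 ratios per spot, and for each phase a table of genes with log2 fold changes, a linear fold change in stationary phase, mean log2 intensities, moderated t scores, p-values and adjusted p-values, per the file headers. They used R 2.9.2 and limma per the submitters' processing notes. How the background was corrected, how arrays were normalized and why some spots lack a ratio is not given in the sources used here. The direction was set by the dyes in the labels and the authors' log2 values. Most of the authors' called genes had the authors' sign on each array, so dye-swapped values had been turned before deposit.

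Spots took gene names through plate wells, 2 or more spots of a gene were averaged, and nothing was scaled or filled in. In row E of plates 10 to 19 the well names were unreliable (r with the authors' log2 values 0.277, against 0.688 over tested genes), and 168 genes there were left out. Genes with at least 2 ratios were tested with limma 3.58.1 in R 4.3.3, with 2 residual and 2.59 prior degrees of freedom at 3 ratios. A gene was called at an adjusted p under 0.05 in a two-sided test, adjusted by Benjamini and Hochberg's method over all tested genes. The test was checked on simulated data with known changes. At log2 changes of 1, 2 and 4 the fit of 3 arrays called 0 of 67, 25 of 67 and 59 of 66 changed genes, with 7 false calls. The difference between phases called 1 of 67, 19 of 67 and 53 of 66, with 2 false calls. A doubling was thus nearly always missed in the simulation, and a gene not called may still differ. The simulated arrays had independent noise of equal spread, while array 2 of the real data stood apart. The rates may therefore not hold for the real arrays. Tables were made with pandas 2.3.3 and plots with matplotlib 3.10.9. Precision is limited by having 3 arrays. Symbols came from the RefSeq annotation for 5849 genes.

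The members and gene lists were chosen with earlier results of these data known. A rule listed genes to name. It took the largest mean ratios or smallest p among genes of one sign on 3 arrays. These were 12 higher outside chromosome XII, 8 on it and 12 lower. It added KNR4 and its neighbours, the 5 largest values in each direction of the authors' calls, and the 4 smallest p in each list. The fixed markers of haploid and sporulating cells were also on it. Not all genes of the rule are described above. Those left out include FCY21, NBP2, KTD1, YOR248W, SER3, CSA1, ARL3, YLR111W, PUS5, RAX2, ACH1, Q0010 and ICS3. Of these the authors' deposited table calls only NBP2 and YOR248W, so the genes described lean towards the authors' calls. All other genes named were chosen after their values were seen, among them AI4, CCS1, CCW12, COX1, CTT1, CWP2, DDR48, EEB1, EMC6, FLO11, GAL2, GAS1, GAT1, GDH3, GPM1, HFA1, HMG1, ERG1, HRI1, HXT4, HXT7, KRE6, MSN2, MSS11, PDE2, PLB2, PMA1, PMA2, PUN1, PUT4, RPL26B, RPL41A, RPL41B, RPS1B, SLT2, SLX4, SOD2, STF2, TOS1, UGA4 and VHR2. Some items are not reported here. The alternatives tried were filters on missing or dim values, scaling, centring, dye and array weights, spots, variance priors, the arrays in the fit, leaving out arrays, and the authors' deposited table.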

Additional observations from a re-analysis of the deposited data

Results flagged for a closer look

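For 5 genes the ratio of mutant over wild type differed between stationary phase and mid-exponential growth in a limma model of all 6 arrays, at adjusted p under 0.05. For INO1 the difference was -5.57, from 2.76 to -2.80, with the sign turned. For AZR1 it was -3.57, for RNR3 -2.32, for HXT1 2.13 and for VHR2 3.23. For AZR1, RNR3 and HXT1 the 3 stationary arrays lay on one side of the 3 mid-exponential ones. VHR2 rests on 2 stationary ratios of a dim gene, at 3.30 and 2.93 on arrays 1 and 3, and the authors' deposited table has it at 0.11 (adjusted p = 0.53).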

How the results depend on the processing

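The count of genes called in stationary phase, 0 with the 3 arrays alone, stayed 0 with a ratio on all 3 arrays, under scaling, under both ways of centring, with a dye term, array weights or a robust prior, without chromosome XII, with the unreliable wells kept, and without replicate 1, 2 or 3 (0 to 0 genes, higher or lower). Without them in turn 180, 718 and 284 genes had an unadjusted p under 0.05. With both spots of a gene kept it was 7 (3 higher, 4 lower), with a prior trend on intensity 10 (4 and 6), in a model of 6 arrays 204 (128 and 76), in the same model with a dye term 72 (40 and 32), and among genes at or above the median intensity 12 (6 and 6). The authors' deposited table holds a count of 267 (130 and 137). The intensity filter and the dye term on 6 arrays were chosen after seeing the data. The cause of these gaps was not tested.

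The count of genes that differ between phases was 5, and 4 or 5 under 5 other settings, but 1 with the array number as a replicate block and 2 with a dye term. The numbers pair the phases in part, since array 1 shares the mutant's vessel, array 2 the wild type's and array 3 both. Array 2 of both phases also had the mutant in Cy3, so a block by number takes up dye as well. Same-numbered arrays correlated at 0.08, 0.21 and -0.05 in their deviations from the phase means. Arrays of different numbers ran from -0.28 to 0.28, so these values do not single out a shared vessel. The median of chromosome XII was 0.70, and 0.57 to 0.79 when 1 array was left out (0.567 without array 3), 0.63 to 0.74 under the other refits, and 0.197 in the authors' deposited table, whose log2 values are smaller. For single genes 1596 of the alternatives kept their side of the threshold and 207 passed it, with none reversed. Many of these genes were named for having one sign on 3 arrays. Such a mean cannot reverse when arrays are left out or weighted, so the lack of reversals is no evidence of stability. Of the list medians, 37 moved by more than 1 SD over arrays while 253 did not.

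Dim genes limit what can be seen, since 11.9 to 23.2% of the genes in the dimmest of 4 intensity classes had a ratio. Promoter motifs were not run, as no sequence table was used here.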

Other observations

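Several lists that the results did not describe had few calls. In the authors' deposited table the thiamine and pyridoxine genes had 2 of 24 called higher, THI7 on chromosome XII and THI72, and 0 lower, with medians of 0.23, 0.26 and 0.42 on arrays 1, 2 and 3. Of 24 genes for multidrug resistance, AZR1 and RTA1 are called lower in the authors' deposited table. Of the 34 genes for mitosis, budding and daughter separation it was ASH1, a repressor of mating type switching, that the authors' deposited table calls higher. None of 66 mitochondrial ribosomal proteins, 48 translation factors and tRNA synthetases, 30 autophagy genes or 11 histone genes is called in the authors' deposited table. These counts are set beside 2.04% higher and 2.14% lower over all its genes.

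Genes with large ratios on the arrays could have values near 0 in the authors' deposited table. CNS1, a co-chaperone gene, was at -3.09, -3.08 and -1.97 on arrays 1, 2 and 3, while the authors' deposited table has it at -0.07. SIM1, a cell wall protein gene, was at 3.17 and 3.09 on arrays 1 and 3, and the authors' deposited table has it at 0.41. Both are dim, with mean log2 intensities of 7.2 and 7.3 in the authors' deposited table, and limma did not call CNS1 and SIM1 with the 3 arrays alone (adjusted p = 0.212 and 0.242). The limma model of 6 arrays called both (adjusted p = 0.013 and 0.012).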
